A study of Rattus norvegicus with 24 samples.

Results

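The miR-30 family was followed across the blood of rats with and without collagen-induced arthritis. Its members were taken by name (rno-miR-30a, rno-miR-30b-5p, rno-miR-30c, rno-miR-30d and rno-miR-30e, written below without the prefix for rat), 5 of the 677 rat miRNAs on the array. All 5 were detected on all 24 arrays, whereas only 132 miRNAs of the array were. Every sample held peripheral blood mononuclear cells (PBMC) of female Wistar rats, measured on a single-colour Agilent array in 12 groups of 2 arrays. Age is not given in the sources used here.

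Healthy animals (NOCIA, called NORA in the labels) were sampled before therapy, at 1 hour and at 34 days. Arthritic animals had been immunised with bovine type II collagen in Complete Freund's adjuvant, and the untreated ones (CIA, called RA) were sampled before therapy only. The arthritic arms sampled at 1 hour and 34 days were mechanical stimulation with a subcutaneous needle (MS, called AP), weekly peritoneal methotrexate (MTX), weekly peritoneal saline as its placebo (PLA), and an arm given no therapy in which isoflurane replaced ether at blood sampling (ANE). All animals were shaved and anaesthetised for blood drawing, and were sacrificed at sampling, so no animal was measured at more than 1 time. The sources used here do not state whether an array held RNA of 1 animal or of several, so p-values measure the spread between these samples. For NOCIA at 34 days a line of the label names 1 hour, whereas the title and another line name 34 days, which was used.

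MicroRNAs are short RNAs that pair with messenger RNAs, mostly through the seed at their 5′ end, and lower their translation and stability. Members of the miR-30 family share that seed and are made from genes that lie in pairs on the genome. Targets for which the family is known include Snai1, a driver of the epithelial-mesenchymal transition, Becn1, which acts in autophagy, and Prdm1, which directs B cells towards plasma cells. The transition is part of wound healing, a process the study asked about.

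The sequences show why the members are counted as a family and how little separates some of them. RefSeq entries on the rat assembly GRCr8 were matched for miR-30a, miR-30c and miR-30e, 3 of the 5 members, and for miR-384-5p, a relative with the same seed. The array's older names stand for the arms now written 5p. miR-30b-5p and miR-30d are named only. Capitals mark the seed, bases 2 to 8.
miR-30a-5p: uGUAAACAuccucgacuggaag
miR-30e-5p: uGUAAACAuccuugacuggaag
miR-30c-5p: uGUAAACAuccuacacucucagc
miR-384-5p: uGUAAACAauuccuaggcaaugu

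Counting from 1 at the 5′ end, miR-30a and miR-30e differ at 1 of 22 positions, C13U, with miR-30a first. miR-30a and miR-30c share their first 12 bases and differ at 5 of the 22 positions compared (C13A, G14C, G18C, G19U and A20C). miR-384-5p shares 8 leading bases with miR-30a and differs at 10 of 22. Among 693 mature rat miRNAs in the table used, 4 carry this seed, the 4 printed. miR-30b-5p and miR-30d were not compared and are not in that count. Whether a probe for 1 member also bound another was not tested. Of the members printed, miR-30a and miR-30e are the most alike.

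miR-30a is encoded at chr9:33233946-33233967 on the plus strand. miR-30e lies at chr5:139637504-139637525 on the minus strand. miR-30c has a copy beside each of them, Mir30c2 at chr9:33253695-33253717 (plus) and Mir30c1 at chr5:139634505-139634527 (minus), and the array cannot tell the copies apart. Mir30e and Mir30c1 lie inside the gene Nfyc, which encodes a subunit of the transcription factor NF-Y. Mir30b and Mir30d neighbour each other.

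Between 145 and 207 miRNAs were detected per array, and their intensities summed to 137544 to 519917 per array. The highest sums belonged to MS replicate 1 at 34 days (519917) and to MS replicate 1 at 1 hour (371061). Outside MS the highest was 303079. Arrays with the same scan date in the file headers are counted here as a slide, and no slide identifier was read. Each of the 3 slides so defined held 4 whole groups, so 10 of the 19 comparisons lie within a slide. In the other 9, slide and group cannot be told apart. The labelled cell type was checked on miRNAs of blood cells. miR-150 and miR-342-3p of lymphocytes, miR-223 of myeloid cells and miR-142-3p of all leukocytes were detected on all 24 arrays, as was the red cell miR-451. miR-122 of liver was detected on 9 arrays. In bulk samples such as these, fewer cells of a type and less RNA per cell cannot be told apart.

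Levels are given as log2 of the total intensity after scaling each array to a common 75th percentile over the 132 miRNAs detected everywhere. They order the groups for a member and are not comparable between members. Before scaling, miR-30a ran from 156 to 979 (median 268), miR-30b-5p from 357 to 1470 (median 596), miR-30c from 499 to 1720 (median 835), miR-30d from 181 to 925 (median 262) and miR-30e from 438 to 1610 (median 682). The error listed by the scanner software was between 7.17% and 9.05% of each value. The number of arrays, 2 in a group, limits the precision.

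Over the 12 groups each member varied less than the median miRNA. After scaling, the fold between the highest and the lowest array was 2.09 for miR-30a, 1.60 for miR-30b-5p, 2.16 for miR-30c, 1.71 for miR-30d and 1.62 for miR-30e. The SD over 24 arrays was 0.23, 0.16, 0.24, 0.16 and 0.20 on the log2 scale in the same order, against a median of 0.31 over the 132 miRNAs. Ranked from the least variable of these, miR-30b-5p stood at 10, miR-30d at 11, miR-30e at 29, miR-30a at 35 and miR-30c at 39. Limma's moderated F test over the 12 groups called 0 of the 5 members, and none had an unadjusted p under 0.05. Over all 210 miRNAs tested it called 5 (2.38%), and 31 (14.8%) had an unadjusted p under 0.05. The adjusted p was 0.397 for miR-30d, 0.581 for miR-30c, 0.593 for miR-30a, 0.702 for miR-30b-5p and 0.814 for miR-30e.

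**Figure D1:**
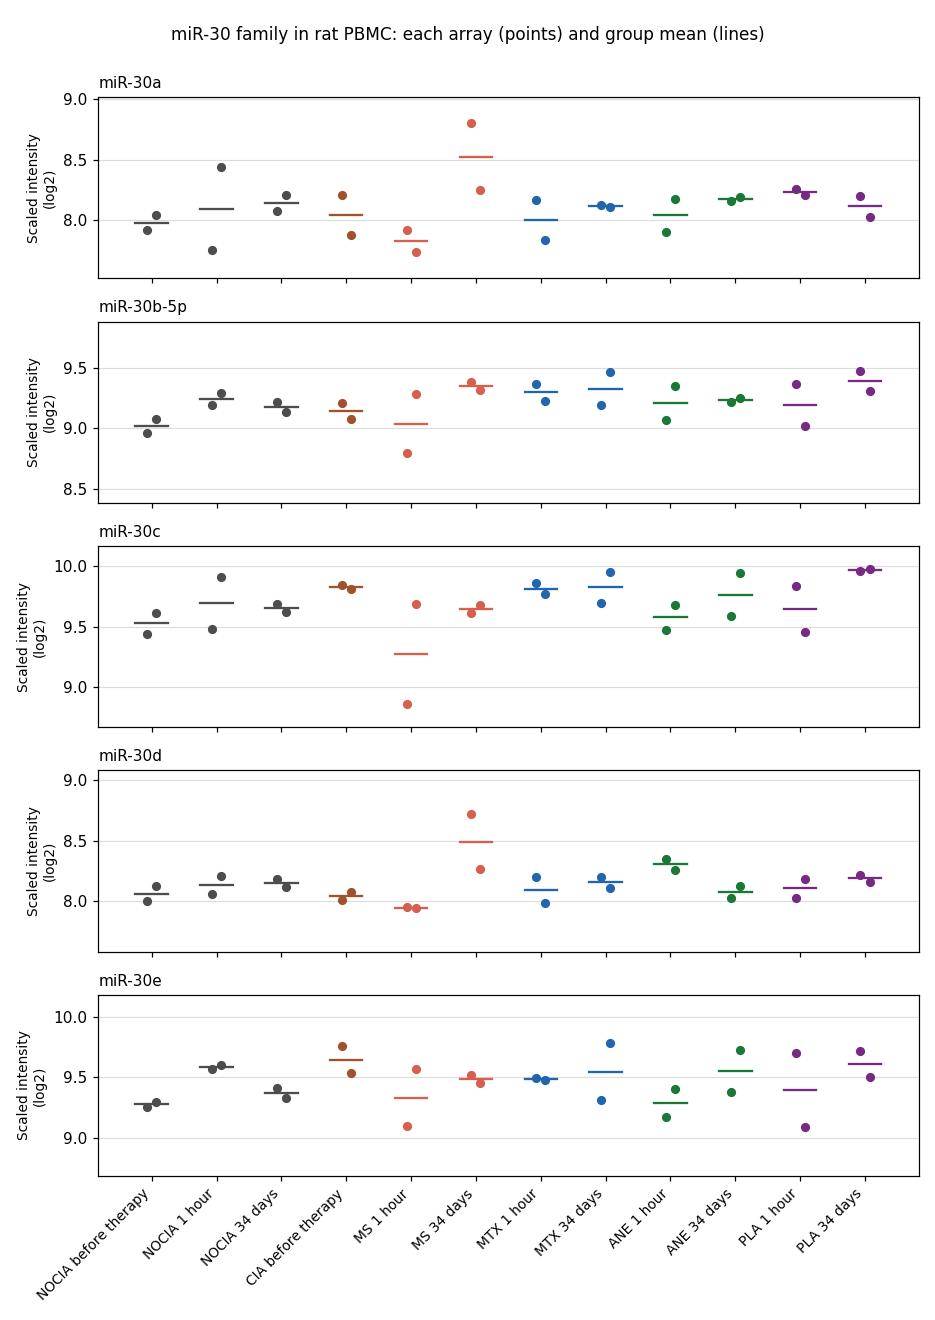
Level of each member on the 24 arrays. The y axes show log2 scaled intensity over a span of 1.5, points are arrays and lines are means of 2 arrays. MS at 34 days has the highest mean for miR-30a and miR-30d, and its replicate 1 is their highest array (8.80 and 8.72). MS at 1 hour is lowest for miR-30c through replicate 1 (8.86).

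miR-30d varied least within groups, with a pooled SD of 0.12. Before therapy its level was 8.00 and 8.12 in NOCIA and 8.01 and 8.08 in CIA. At 1 hour it was 8.05 and 8.21 in NOCIA, 7.95 and 7.94 in MS, 8.20 and 7.98 in MTX, 8.35 and 8.26 in ANE, and 8.02 and 8.18 in PLA. At 34 days it was 8.18 and 8.12 in NOCIA, 8.72 and 8.26 in MS, 8.20 and 8.11 in MTX, 8.02 and 8.13 in ANE, and 8.22 and 8.16 in PLA. Both MS arrays at 1 hour lay below all other arrays of the series, and MS replicate 1 at 34 days lay above all others. From the highest group mean (MS at 34 days) to the lowest (MS at 1 hour), neighbours in the order overlapped in 9 of 11 pairs. The breaks fell below ANE at 1 hour and above MS at 1 hour.

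miR-30a, a known repressor of Becn1, had the same extremes. Its level was 7.92 and 8.04 in NOCIA and 8.21 and 7.88 in CIA before therapy, 7.92 and 7.74 in MS at 1 hour, and 8.80 and 8.25 in MS at 34 days. The other groups had means between 8.00 (MTX at 1 hour) and 8.24 (PLA at 1 hour). The replicates of NOCIA at 1 hour, 7.75 and 8.44, were farther apart than those of any other group. Neighbours in the order of group means overlapped in 10 of 11 pairs, with the break below PLA at 1 hour.

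miR-30c was lowest in MS at 1 hour, at 8.86 and 9.69, and highest in PLA at 34 days, at 9.96 and 9.98. Its level was 9.44 and 9.62 in NOCIA and 9.85 and 9.81 in CIA before therapy, and 9.61 and 9.68 in MS at 34 days. MS replicate 1 at 1 hour was the lowest array of the series, and the gap of 0.83 to its replicate exceeded that in every other group. Neighbours overlapped in 10 of 11 pairs, and only PLA at 34 days stood clear of the next group, CIA before therapy.

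miR-30b-5p and miR-30e had no such breaks, and neighbours in their order overlapped in 11 of 11 pairs. The group means of miR-30b-5p ran from 9.02 (NOCIA before therapy, arrays at 8.96 and 9.08) to 9.39 (PLA at 34 days, 9.47 and 9.31). Those of miR-30e ran from 9.28 (NOCIA before therapy, 9.25 and 9.30) to 9.64 (CIA before therapy, 9.75 and 9.53). The lowest miR-30b-5p array was again MS replicate 1 at 1 hour (8.80), and the lowest miR-30e array was PLA replicate 2 at 1 hour (9.08).

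The first comparison asked what arthritis itself did to the family before any therapy, and both groups lay on the same slide. Limma called 0 of 5 members, with 0.952% of all miRNAs called, and 0 members had an unadjusted p under 0.05, as 7.62% of all miRNAs did. CIA was higher by 0.37 in miR-30e (SE 0.22, adjusted p = 0.836) and by 0.30 in miR-30c (SE 0.24, adjusted p = 0.938). The arrays of the groups did not overlap for miR-30b-5p, miR-30c and miR-30e, 3 of 5, where 58.6% of all miRNAs did not overlap. The differences were 0.13, 0.06 and -0.02 for miR-30b-5p, miR-30a and miR-30d. The 95% interval for miR-30d ran from -0.33 to 0.29, and that for miR-30e from -0.10 to 0.84.

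At 1 hour the arms were set against CIA before therapy, across slides. No member was called in MS, MTX, ANE or PLA, where 0%, 1.43%, 0.476% and 0.952% of all miRNAs were called. In MS all 5 members had a negative difference, but all were positive without scaling (0.34 to 0.80) and the signs were mixed with quantile normalisation (-0.31 to 0.27). Their median was -0.22 against 0 over the 210 miRNAs. miR-30c was at -0.55 (SE 0.24, adjusted p = 0.366 by limma). It was the only member with an unadjusted p under 0.05 in these arms, as 12.9% of all miRNAs had in MS, 4.29% in MTX, 18.1% in ANE and 8.1% in PLA. That value rests on MS replicate 1: without it the difference was -0.14 (adjusted p = 1), and without replicate 2 it was -0.97 (adjusted p = 0.0137), when 16.2% of all miRNAs were called.

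In ANE at 1 hour the members differed in sign. miR-30d was at 0.26 (SE 0.14, adjusted p = 0.299) and miR-30e at -0.36 (SE 0.22, adjusted p = 0.331), and neither overlapped with CIA. miR-30c did not overlap either (-0.25), so 3 of 5 members and 55.2% of all miRNAs were apart. In MTX the differences lay between -0.16 and 0.15 and in PLA between -0.25 and 0.19.

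A single slide held MS, MTX, PLA and NOCIA at 1 hour, with ANE on another. On it MS was below PLA in all 5 members, but above it without scaling (0.06 to 0.40) and with the 75th percentile over all miRNAs (0.42 to 0.76). The median difference of the members was -0.16, while the median over the 210 miRNAs was -0.22. Limma called 0 of 5 members and 0.952% of all miRNAs, and 0 members and 9.52% of all miRNAs had an unadjusted p under 0.05. The lowest of the members was miR-30a (difference -0.41, SE 0.22, adjusted p = 0.688). MTX minus PLA lay between -0.23 and 0.17 and PLA minus NOCIA between -0.19 and 0.14. Both had 0 members and 0% of all miRNAs called, and 0 members with an unadjusted p under 0.05, where 2.38% and 1.9% of all miRNAs had one. NOCIA at 1 hour was above NOCIA before therapy by 0.07 to 0.31 in the 5 members, but below it with the 75th percentile over all miRNAs (-0.34 to -0.10). There limma called 0 members and 2.38% of all miRNAs, and 0 members had an unadjusted p under 0.05 against 9.05% of all miRNAs.

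At 34 days the question was which arm had moved away from CIA before therapy. In MS miR-30d rose by 0.45 (SE 0.14, 95% interval 0.14 to 0.76, adjusted p = 0.0429 by limma), a fold of 1.37. The groups lay on different slides, so slide and group cannot be told apart in this difference. Within a slide, in MS minus PLA and MS minus MTX at 34 days, miR-30d was not called (0.30 and 0.34). In both, 0% of all miRNAs were called. The miR-30d arrays stood at 8.72 and 8.26 in MS and at 8.01 and 8.08 in CIA, without overlap. Their SD was 0.32 in MS at 34 days, against 0.12 pooled over the 12 groups. A fit of only the arrays compared gave the same difference with SE 0.21 (adjusted p = 0.249 by limma). miR-30d was the only member called in any of the 19 comparisons. Limma called 40 of the 210 miRNAs in the same comparison (19%), so 1 of 5 members is near the share of all miRNAs. The difference also stood against a median of 0.16 over the 210 miRNAs.

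**Figure D2:**
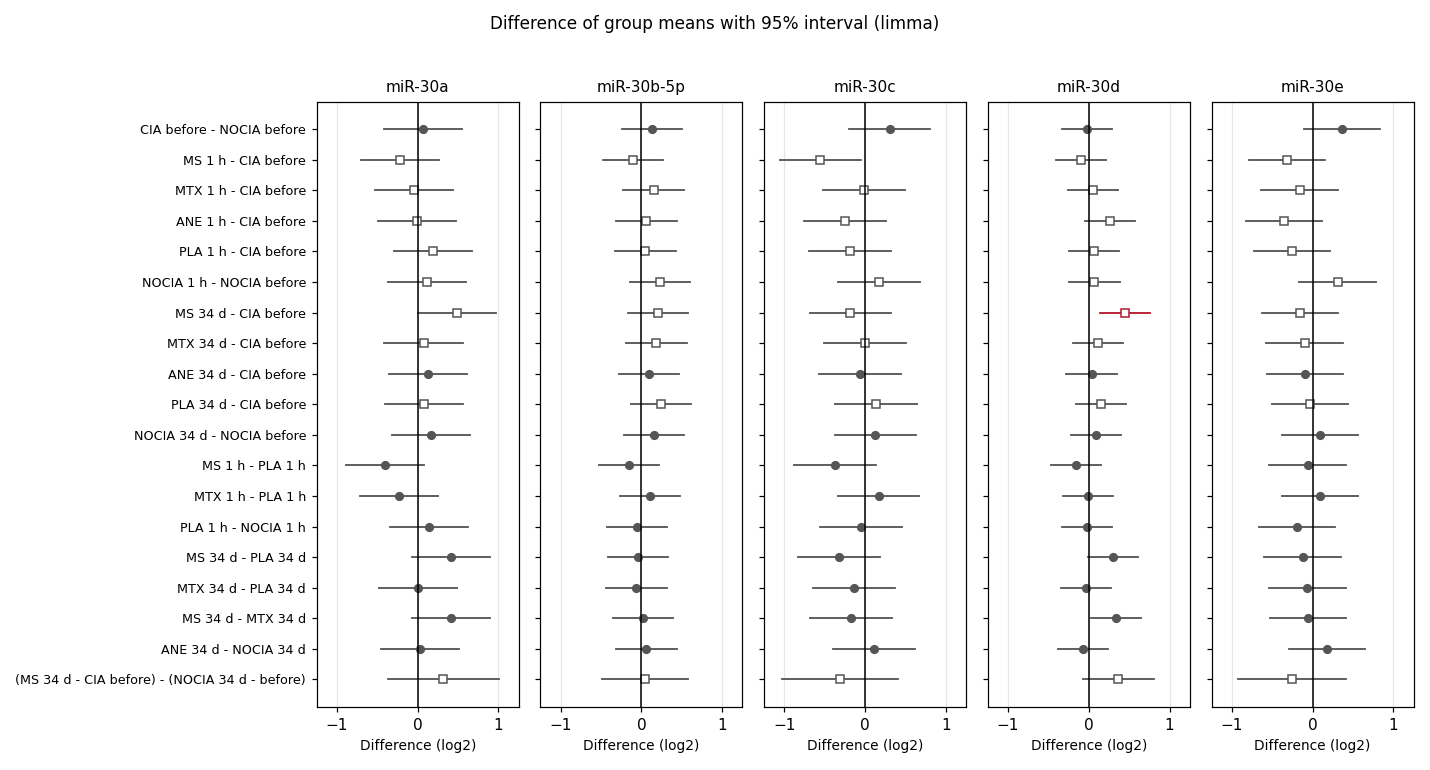
Difference of group means for each member in the 19 comparisons. The x axes show log2 difference, bars are 95% intervals from limma, filled circles are comparisons within a slide and open squares comparisons across slides. Red marks an adjusted p under 0.05, reached by miR-30d in MS at 34 days minus CIA before therapy (0.45).

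No other member was called there. miR-30a was higher by 0.48 (SE 0.22, adjusted p = 0.103), miR-30b-5p by 0.20 (SE 0.17, adjusted p = 0.369), while miR-30c was at -0.18 (SE 0.24, adjusted p = 0.573) and miR-30e at -0.16 (SE 0.22, adjusted p = 0.596). None of the 5 overlapped between the groups, and 68.6% of all miRNAs did not. The median of the 5 was 0.20. miR-30a and miR-30d had an unadjusted p under 0.05, 2 of 5, against 48.6% of all miRNAs. The criterion of the study, more than a 2-fold change at an unadjusted p under 0.05, was applied to the scaled values and the fit used here. With detection on every array compared also required, it took 0 members and 17.6% of all miRNAs.

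The rise of miR-30d depended on single arrays and on the scaling. Without MS replicate 1 it was 0.22 (adjusted p = 0.477), and without MS replicate 2 it was 0.68 (adjusted p = 0.0077), when 49% of all miRNAs were called. Leaving out CIA replicate 1 or 2 gave 0.42 (adjusted p = 0.141) or 0.48 (adjusted p = 0.13). The number of all miRNAs called, 40 of 210, fell with the same arrays, to 0 without MS replicate 1, 1 without CIA replicate 1 and 0 without CIA replicate 2. Scaling on the 75th percentile of all miRNAs gave 0.25 (adjusted p = 0.611) and quantile normalisation 0.24 (adjusted p = 0.194). Each of its probes, fitted alone, gave nearly the same size, 0.44 (adjusted p = 0.0554) and 0.46 (adjusted p = 0.0484). Its difference was positive under every setting run.

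**Figure D3:**
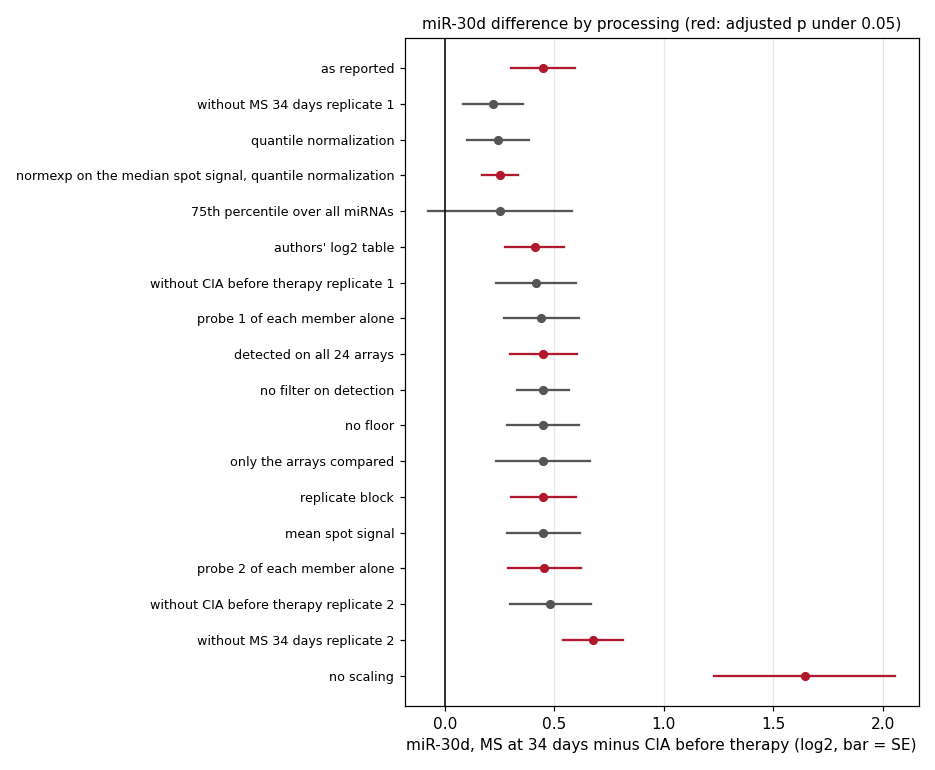
miR-30d in MS at 34 days minus CIA before therapy under each setting run. The x axis shows log2 difference, points are estimates and bars their SE. The estimates run from 0.22 without MS replicate 1 to 1.64 without scaling, and red marks an adjusted p under 0.05.

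Other features of the MS arrays moved beside this result, and their part in it was not tested. Of the lymphocyte markers, 3 of 3 were lower in MS at 34 days than in CIA, with miR-150 at -2.43 (adjusted p = 0.055), miR-342-3p at -1.29 (adjusted p = 0.055) and miR-181a at -0.80 (adjusted p = 0.111). The summed scaled intensity of the 3 was 2040 to 7460 in MS at 34 days, 13800 to 15000 in CIA, and 2100 to 12900 in MS at 1 hour. The myeloid miR-223 rose by 0.89 (adjusted p = 0.0383), and its scaled intensity was 8680 to 12200 against 4920 to 6220. The platelet and endothelial miR-126 was higher by 1.17 (adjusted p = 0.0663), and miR-126* was detected on 2 of 24 arrays. The red cell markers miR-451 and miR-144 overlapped (4660 to 8720 against 4310 to 27100), and miR-122 of liver was detected on 0 of these 4 arrays. MS replicate 1 at 34 days, with the highest miR-30d, also had the lowest miR-150 of the series, 9.55.

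MS, MTX and PLA at 34 days lay on a single slide, with ANE and NOCIA at 34 days on another. On it MS stood above PLA by 0.30 in miR-30d (SE 0.14, adjusted p = 0.125) and by 0.41 in miR-30a (SE 0.22, adjusted p = 0.178). miR-30c was at -0.32 (SE 0.24, adjusted p = 0.298). The arrays of these 3 members did not overlap, where 71% of all miRNAs did not. No member and 0% of all miRNAs were called by limma. An unadjusted p under 0.05 was found for 0 members and 40% of all miRNAs. MS minus MTX gave 0.34 for miR-30d (SE 0.14, adjusted p = 0.259) and 0.41 for miR-30a (SE 0.22, adjusted p = 0.317), again with 0 members and 0% of all miRNAs called by limma. There miR-30d alone of the members had an unadjusted p under 0.05, as did 17.6% of all miRNAs. Without MS replicate 2 the miR-30d difference was 0.53 from PLA (adjusted p = 0.0181) and 0.56 from MTX (adjusted p = 0.0455), and miR-30a was 0.68 from PLA (adjusted p = 0.0409). In these fits 43.3% of all miRNAs were called against PLA and 4.29% against MTX.

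MTX, ANE and PLA at 34 days had 0 members and 0% of all miRNAs called against CIA before therapy by limma. An unadjusted p under 0.05 was found for 0 members in each, and for 7.14%, 2.86% and 1.9% of all miRNAs. The members lay between -0.10 and 0.18 in MTX, between -0.10 and 0.13 in ANE and between -0.04 and 0.25 in PLA. These arms share the CIA arrays with MS. MTX minus PLA lay between -0.14 and -0.0013, and ANE minus NOCIA between -0.07 and 0.18, with 0 members and 0% of all miRNAs called in both. An unadjusted p under 0.05 was found for 0 members in both, and for 2.38% and 3.81% of all miRNAs. NOCIA at 34 days was above NOCIA before therapy by 0.09 to 0.16 in all 5 members, although miR-30c was at -0.01 with quantile normalisation. The median over the 210 miRNAs was 0.12. Limma called 0 members and 0.952% of all miRNAs, and 0 members and 6.67% of all miRNAs had an unadjusted p under 0.05.

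Whether group means moved more with MS than in health over the 34 days was tested by the difference of the differences. It was 0.36 for miR-30d (SE 0.20, 95% interval -0.08 to 0.80, adjusted p = 0.465) and 0.32 for miR-30a (SE 0.32, adjusted p = 0.587). miR-30c was at -0.31 and miR-30e at -0.26. Limma called 0 members and 0.476% of all miRNAs, and 0 members and 8.1% of all miRNAs had an unadjusted p under 0.05. A change in MS beyond that in NOCIA was thus not shown for any member. Of the 95 intervals of 5 members in 19 comparisons, 92 lay within 1 log2 unit on either side of 0.

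Since MS held both the lowest and the highest group mean of miR-30a and miR-30d, 34 days was also set against 1 hour within each arm, a comparison that was chosen after those means were seen and that crosses slides in every arm. In MS miR-30a was higher at 34 days by 0.70 (SE 0.22, adjusted p = 0.137) and miR-30d by 0.55 (SE 0.14, adjusted p = 0.137). Limma called 0 members and 0% of all miRNAs there. An unadjusted p under 0.05 was found for these 2 of 5 members and for 51 of 210 miRNAs. In MTX, ANE, PLA and NOCIA the miR-30d difference was 0.06, -0.23, 0.08 and 0.02, and the miR-30a difference 0.11, 0.13, -0.12 and 0.05, with 0 members called where 1.43%, 0%, 1.43% and 1.43% of all miRNAs were.

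Over all 24 arrays the members fell into 2 sets by how they varied, but only 1 of the sets held without MS. Pearson's r of scaled log2 levels was 0.79 between miR-30b-5p and miR-30c, 0.76 between miR-30b-5p and miR-30e, and 0.78 between miR-30c and miR-30e. It was 0.71 between miR-30a and miR-30d. Between the sets it lay between -0.04 (miR-30d with miR-30e) and 0.43 (miR-30a with miR-30b-5p). The median over all 8646 pairs of the 132 miRNAs was 0.16, with quartiles at -0.39 and 0.62. High values were thus common among all pairs. For r without MS or with group means removed, no such background was computed. With group means removed, which leaves 12 pairs of replicates, r was 0.85, 0.89 and 0.79 within the first set and 0.61 between miR-30a and miR-30d.

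**Figure D4:**
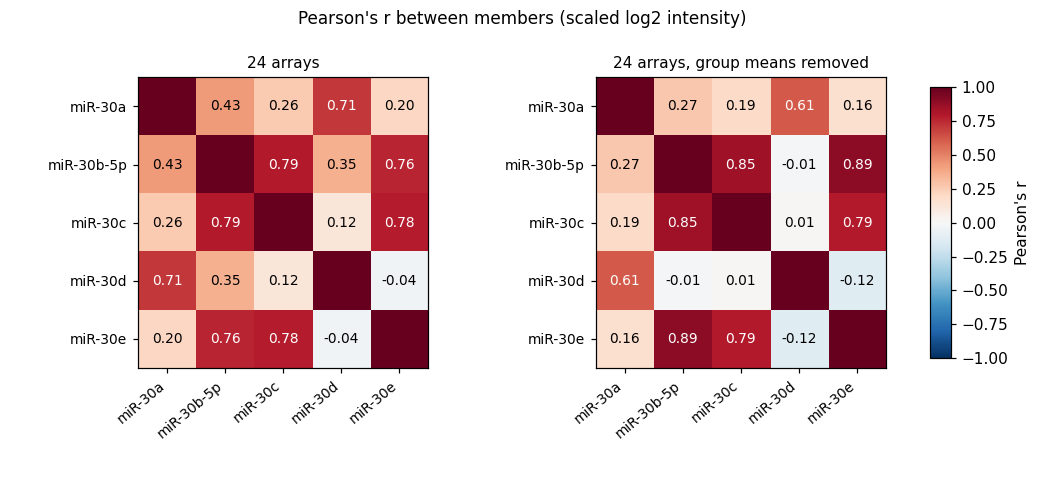
Pearson's r between members over 24 arrays (left) and with group means removed (right). The colour and the printed number give r. miR-30b-5p, miR-30c and miR-30e form a block of 0.76 to 0.89 in both panels, and miR-30d with miR-30e is at -0.04 and -0.12.

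The 2 sets differed in what they rest on. Without the 4 MS arrays the first set stayed at 0.77, 0.73 and 0.81, whereas miR-30a with miR-30d was at 0.24. There miR-30a was closer to miR-30c (0.42) and miR-30b-5p (0.41), and values between the sets ran from -0.30 (miR-30d with miR-30e) to 0.42. The pairs on the genome and the pairs by level were not the same: r was 0.35 for miR-30b-5p with its neighbour miR-30d, 0.78 for miR-30c with miR-30e, and 0.26 for miR-30a with miR-30c, whose second copy lies beside it. miR-30a and miR-30e, 1 base apart, had an r of 0.20. All points share their array's scaling and brightness, so these are descriptions.

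The brightness of an array moved with the members in opposite directions. Over 24 arrays r between a scaled level and the array's brightness, its 75th percentile before scaling, was 0.42 for miR-30a, 0.46 for miR-30d, -0.11 for miR-30b-5p, -0.39 for miR-30e and -0.51 for miR-30c. Without MS it was 0.33, 0.47, 0.10, -0.38 and -0.17. The part of brightness in the differences above was not tested.

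Ratios between members within an array do not depend on the scaling, but several of them moved with brightness. Over 24 arrays r with brightness was 0.73 for miR-30d over miR-30c, 0.77 for miR-30a over miR-30c and 0.63 for miR-30e over miR-30e*, and without MS it was 0.37, 0.46 and -0.03. The replicate 1 arrays of MS had the highest summed intensities of the series. The log2 ratio of miR-30d over miR-30c was -0.89 and -1.42 in MS at 34 days, -0.92 and -1.75 in MS at 1 hour, and -1.84 and -1.74 in CIA before therapy. Over the 20 arrays outside MS it ran from -1.85 to -1.13 with a median of -1.61. Only the replicate 1 arrays of MS lay above that range, at both times. The ratio of miR-30a over miR-30c did the same, at -0.81 and -0.94 on those arrays against -1.95 to -1.24 outside MS. The ratio of miR-30a over miR-30d stayed between -0.44 and 0.23 on all 24 arrays, and its r with brightness was 0.13 (0.06 without MS). For miR-30c over miR-30e that r was -0.31 (0.37 without MS).

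**Figure D5:**
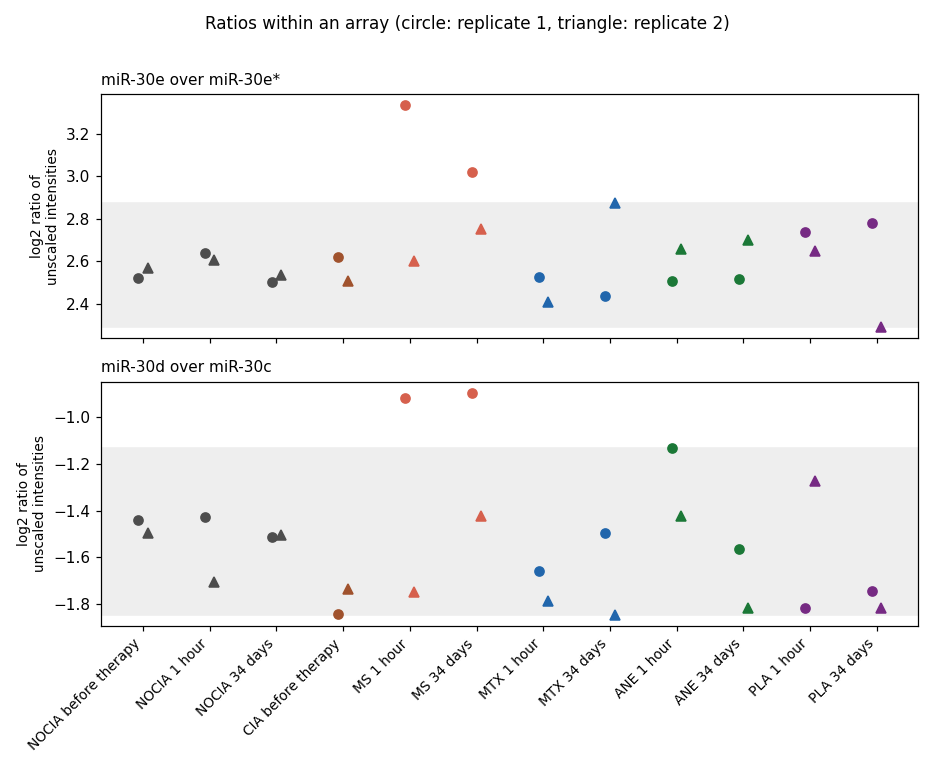
Log2 ratios within each array, miR-30e over miR-30e* (top) and miR-30d over miR-30c (bottom), from unscaled intensities. Circles are replicate 1, triangles replicate 2, and the grey band is the range of the 20 arrays outside MS (2.29 to 2.88 and -1.85 to -1.13). The replicate 1 arrays of MS lie above both bands.

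Each miR-30 hairpin also gives a second arm, marked with a star or 3p on the array, which carries another seed and is usually the less abundant. miR-30e* was detected on 24 arrays, miR-30c-1* on 22, miR-30a* on 16, miR-30b-3p on 3, miR-30c-2* on 1 and miR-30d* on 0. miR-384-5p, which shares the seed and is known from brain, was detected on 0 arrays. None of the 4 arms detected on at least 3 arrays was called in the comparisons of MS with CIA, PLA or MTX.

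miR-30e* was most alike to miR-30c among the members. Over 24 arrays its r was 0.87 with miR-30c, 0.68 with miR-30e, 0.58 with miR-30b-5p, -0.08 with miR-30a and -0.14 with miR-30d. Without MS these were 0.76, 0.75, 0.49, -0.01 and -0.35. Its r with the brightness of the array was -0.73, and -0.41 without MS. Its level was 6.73 and 6.73 in NOCIA and 7.14 and 7.03 in CIA before therapy, 5.76 and 6.96 in MS at 1 hour, and 6.50 and 6.69 in MS at 34 days. MS replicate 1 at 1 hour was the lowest of the 24 arrays. MS at 1 hour minus CIA was -0.72 (SE 0.28, adjusted p = 0.35), and MS at 34 days minus CIA was -0.49 (SE 0.28, adjusted p = 0.176). The log2 ratio of miR-30e over miR-30e* was 3.34 and 3.02 on the replicate 1 arrays of MS, against 2.29 to 2.88 outside MS.

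miR-30a* was detected on both MS arrays at 34 days, at 5.61 and 4.97, and on neither NOCIA array before therapy. Detection went with brightness: the 8 arrays without it had summed intensities of 137544 to 191876, and the 16 arrays with it 163860 to 519917. MS at 34 days minus CIA was 2.04 (SE 0.98, adjusted p = 0.111), with miR-30a* detected on 3 of the 4 arrays.

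Among the 127 other miRNAs detected on all arrays, each member had near companions, chosen as the 3 highest r over 24 arrays. For miR-30d they were miR-23b (0.90), miR-98 (0.86) and miR-26a (0.83), and for miR-30a miR-101b (0.82), miR-185 (0.76) and miR-93 (0.76). For miR-30e they were miR-29b (0.87), miR-29c (0.83) and miR-106b (0.78), and for miR-30b-5p miR-29c (0.72), miR-140 (0.67) and miR-26b (0.65). For miR-30c they were miR-30e* (0.87), miR-361 (0.87) and miR-378 (0.82). The least alike was miR-328a for miR-30b-5p (-0.37), miR-30c (-0.63) and miR-30e (-0.67), miR-3588 for miR-30a (-0.66) and miR-3558-3p for miR-30d (-0.62). Without MS the top companions of miR-30d and miR-30a stood at 0.76 (miR-23b) and 0.67 (miR-101b), and miR-29c with miR-30e at 0.92. Some pairs thus rose and others fell. Among those that fell were miR-26b with miR-30b-5p (to 0.43), miR-185 with miR-30a (to 0.58) and miR-98 with miR-30d (to 0.655).

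Each member was read by 2 probes of 10 spots each. Over 24 arrays r between the probes of a member was 0.97 for miR-30d, 0.96 for miR-30c, 0.94 for miR-30e and miR-30a, and 0.89 for miR-30b-5p. The log2 ratio between the probes varied with an SD of 0.04 for miR-30d and 0.09 to 0.12 for the others. The probes of miR-30e differed in MS at 34 days minus CIA, at -0.36 (SE 0.26) and -0.10 (SE 0.23), both without a call. All 5 members had the same sign on both probes there.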

How the data were processed

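The members and lists were chosen with earlier results of these data known. Per the labels, PBMC were isolated on Ficoll and mirVana RNA was Cy3-labelled. Per the file headers, Agilent Feature Extraction 10.7.3.1 read the spots, and the deposited scanner files hold linear intensity values, background-corrected and not normalised between arrays. Each miRNA had a total intensity summed over its probes and a detection flag. The authors also deposited a log2 table, whose normalisation is not stated, used as an alternative. The study's methods name AgiMicroRna and limma.

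Total intensity was scaled to the 75th percentile over the 132 miRNAs detected on all arrays, set to a floor of 5.765 (2.53 on the log2 scale) and log2-transformed. Detection on at least 3 arrays left 210 miRNAs, fitted with limma 3.58.1 in R 4.3.3 (12 group means, 12 residual degrees of freedom). Adjusted p-values are Benjamini-Hochberg over the 210 and tests were without a set direction; under 0.05 is named a call. With 2 arrays per group an exact test cannot reach that threshold. Intervals are 95%. Named were the 5 members, other arms of their hairpins, miR-384-5p, and for each member the 3 miRNAs with the highest and the 1 with the lowest Pearson's r. Data were simulated for MS at 34 days minus CIA before therapy, over 210 miRNAs with 40 changed. In them 48.8% of changes of 1 (log2) and 82.2% of changes of 2 were called, and 4.38% of calls were false. Changes as small as those of the members, at most 0.48 there, were not simulated. These shares thus do not bear on the miR-30d call. Slide was no term of the model, since every group lay on a single slide. Alternatives were other scalings, spot summaries, filters and floors, the log2 table, normexp on the median spot signal, a replicate block, a fit restricted to the groups compared, the threshold of the study, and each array left out in turn. Single probes and 34 days against 1 hour were added after the data were seen.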

Additional observations from a re-analysis of the deposited data

How the results depend on the processing

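The number of members called was recomputed 352 times over 20 results. It kept its value 334 times and moved 18 times, in 4 comparisons. In every result but MS at 34 days minus CIA before therapy the count started at 0. Keeping its value thus mostly meant staying at 0, and the total says little about the result that held a call. In MS at 34 days minus CIA before therapy 1 member was called. The count was 0 with the 75th percentile over all miRNAs, the mean spot signal, no filter on detection or no floor. It was also 0 with a fit of only the arrays compared, probe 1 of each member alone, quantile normalisation or the study's threshold (fold over 2, 17.6% of all miRNAs taken). For the other settings with 0 the share of all miRNAs is not given here, so a lost call is not read as particular to miR-30d. A share without a filter is over all 677 miRNAs, 432 of which were detected on no array, and not over the 210. It is thus not comparable with the other shares. Without scaling the count was 5 (62.9% of all miRNAs called). Leaving out an array gave 0 to 2. For MS minus PLA at 34 days, where 0 were called, it was 1 without a filter (60.9% of all miRNAs called) and 5 without scaling (59%), and leaving out an array gave 0 to 2. Leaving out an array gave 0 to 1 for MS minus MTX at 34 days and for MS at 1 hour minus CIA before therapy. MS replicate 2 was the array left out in each of these cases above the reported count.

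Without scaling, the median difference over the 210 miRNAs in MS at 34 days was 1.32 against CIA and 1.13 against PLA, in place of 0.16 and 0.21 with scaling. In these settings 5 differences changed sign and were called: against CIA miR-30c at 1.01 (adjusted p = 0.0102) and miR-30e at 1.03 (adjusted p = 0.0105), and against PLA miR-30b-5p at 1.00 (adjusted p = 0.02), miR-30c at 0.72 (adjusted p = 0.0407) and miR-30e at 0.92 (adjusted p = 0.0202). Relative to the median of all miRNAs they stayed below it. The cause of the other moves was not tested.

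With the replicate block the counts were unchanged in all 19 comparisons, and miR-30d in MS at 34 days minus CIA was 0.45 (adjusted p = 0.0452). No common pairing by replicate number was seen. Over 66 pairs of groups the correlation of same-numbered deviations had a median of -0.03 and ran from -0.77 to 0.85. It was over 0.1 in 26 of the 66, so these values cannot settle whether the samples are paired. With 2 arrays per group, changes of under 1 on the log2 scale can go uncalled. A normexp correction planned on the mean spot signal was run on the median signal that the files hold.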
